A study of Mus musculus with 2 samples.

Results

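The integrated stress response and the unfolded protein response were represented by 40 genes of the 32286 features in each matrix, all found by gene symbol in both libraries. They fell into an ATF4 arm of 29 genes, which holds stress-responsive transcription factors, feedback regulators, enzymes of serine, one-carbon and amino acid synthesis and amino acid transporters, and an ER arm of 11 genes, which holds chaperones, disulfide isomerases and regulators of the endoplasmic reticulum (ER). The genes were listed by name for their place in the pathways, and no threshold on measured values entered the rule.

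Transcripts of single mouse cells (ICR strain) had been sequenced in 2 libraries without replicates. The first held embryonic stem cells (ESCs) in serum/LIF on feeder cells (0 h), and the second held cells differentiated for 48 h into epiblast-like cells (48h-EpiLCs). Each was a mixture of wild-type (WT) cells carrying the ROSA mT/mG reporter, which transcribe tdTomato, and Cnot8 knockout (KO) cells, in which CRISPR/Cas9 had targeted exon 2 of a deadenylase gene of the Ccr4-Not complex. The study asked how loss of Cnot8 alters the naïve-to-formative transition, and the comparisons below set the stress genes of KO against WT within each library, and of 48h-EpiLCs against ESCs within each line. By the methods of the study, mutant ESC lines were grown from blastocysts of heterozygote matings, single colonies were picked, and EpiLCs were induced from ESCs kept in 2i/LIF, so that the lines may be single clones and the 0 h library was not the culture from which EpiLCs start.

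A cell was assigned to a line by its own transcripts. WT cells had at least 1 UMI (unique molecular identifier, 1 counted transcript) of tdTomato and 0 of the Y-linked Ddx3y, Eif2s3y, Kdm5d and Uty, and KO cells had 0 UMIs of tdTomato and at least 2 of these Y-linked genes. The ESC library gave 435 WT and 2978 KO cells of 11054 kept, and the 48h-EpiLC library gave 368 WT and 2977 KO cells of 9400 kept. The other 7641 and 6055 kept cells met neither rule. These classes held 6154790, 44110356, 6219834 and 59291903 UMIs in that order, with medians of 13151 to 17628 UMIs per cell. The cells that met neither rule included 35 in each library with at least 1 tdTomato UMI and at least 2 Y-linked UMIs. The libraries shared 41 barcodes (0.311% and 0.33% of their barcodes). Levels are given as CPM, the UMIs of a gene scaled to a class total of 1000000. Cnot8 itself was at 43.1 CPM in WT and 72.1 CPM in KO ESCs, and in 48h-EpiLCs at 49.7 and 62.6 CPM, so its RNA gave no check of the KO label. The titles of both samples name a mixture of WT and KO, while the genotype field of both reads wild type. Line was set by tdTomato and Y-linked UMIs, so that the Y-linked difference is fixed by the rule, and effects of genotype, line and sex chromosomes cannot be told apart, nor can those of stage and library. The 6 pluripotency markers summed to 1977 to 2628 CPM in the 4 classes. Feeder fibroblast markers summed to 10.2 CPM in WT and 38.7 in KO ESCs, and primitive endoderm markers to 20.0 and 40.2 CPM, with no marker of either list above 16.1 CPM. In 48h-EpiLCs the sums were 6.43 to 11.1 CPM.

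In the integrated stress response, kinases that sense amino acid shortage, unfolded protein, heme shortage or viral RNA phosphorylate the initiation factor eIF2, which lowers general translation and raises translation of ATF4, an activator of amino acid synthesis and transport genes. In the unfolded protein response, ER stress activates the transcription factors XBP1 and ATF6, which act on ER chaperone genes, while PERK joins it to ATF4. In pluripotent cells, serine and one-carbon enzymes such as Phgdh and Mthfd2 also serve growth in the absence of stress.

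The promoters of the members carried the letters of the elements through which these factors are known to act, and the windows around the matches are shown because matches of each element lay mostly in 1 arm, although most members of the ATF4 arm had none. RefSeq promoters on GRCm38.p6 (250 bases before to 50 after the start) were found for 35 of the 40 members, 25 of the ATF4 arm and 10 of the ER arm. The core of the C/EBP-ATF response element (CARE, TGATGNAA on either strand) was in 3.97% of all 32851 promoters, in promoters of 8 of the 25 ATF4 arm genes and in that of 1 of the 10 ER arm genes, Herpud1. In Trib3 the match lay after the start and is not printed. The windows of the other 8 genes are given from 5′ to 3′ along the gene, with the CARE core, or its reverse complement, in capitals.
Nupr1 (chr7:126625558-126625595, minus strand): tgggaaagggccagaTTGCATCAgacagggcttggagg
Chac1 (chr2:119351034-119351071, plus strand): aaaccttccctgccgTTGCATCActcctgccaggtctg
Asns (chr6:7693210-7693247, minus strand): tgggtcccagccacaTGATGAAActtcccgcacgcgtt
Pycr1 (chr11:120643829-120643866, minus strand): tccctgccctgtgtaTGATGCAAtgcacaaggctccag
Pck2 (chr14:55540148-55540185, plus strand): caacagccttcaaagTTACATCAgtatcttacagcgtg
Slc7a11 (chr3:50443638-50443694, minus strand): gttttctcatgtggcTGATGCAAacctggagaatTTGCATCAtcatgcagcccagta
Vldlr (chr19:27216805-27216842, plus strand): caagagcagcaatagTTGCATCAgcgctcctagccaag
Herpud1 (chr8:94386302-94386339, plus strand): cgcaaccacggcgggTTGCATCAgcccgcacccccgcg
The ER stress element (ERSE, CCAAT, any 9 bases, then CCACG, on either strand) was in 0.119% of all promoters, in none of the 25 ATF4 arm genes and in 5 of the 10 ER arm genes. Capitals mark the outer blocks of the element, and the window of Hsp90b1 spans 2 matches.
Hspa5 (chr2:34772010-34772058, plus strand): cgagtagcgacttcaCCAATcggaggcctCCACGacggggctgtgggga
Hsp90b1 (chr10:86705518-86705671, minus strand): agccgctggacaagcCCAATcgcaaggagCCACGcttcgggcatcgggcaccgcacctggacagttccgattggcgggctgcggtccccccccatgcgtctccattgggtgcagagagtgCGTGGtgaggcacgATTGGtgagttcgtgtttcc
Calr (chr8:84847060-84847108, minus strand): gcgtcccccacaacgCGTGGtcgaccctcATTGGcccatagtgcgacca
Creld2 (chr15:88819505-88819553, plus strand): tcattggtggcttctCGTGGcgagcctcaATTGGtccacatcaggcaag
Pdia6 (chr12:17266476-17266524, plus strand): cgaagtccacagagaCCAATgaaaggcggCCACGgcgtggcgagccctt
The matches of the CARE core upstream of the start lay 23 to 200 bases before it, and those of the ERSE 65 to 212 bases before it. The unfolded protein response element (UPRE, TGACGTGG on either strand) was in 0.676% of all promoters and in none of these 35 genes. The elements searched have no full match in common. Atf5, Psat1 and Vldlr have 2 promoter entries each and were counted once. A match describes letters in the sequence and not binding.

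**Figure D1:**
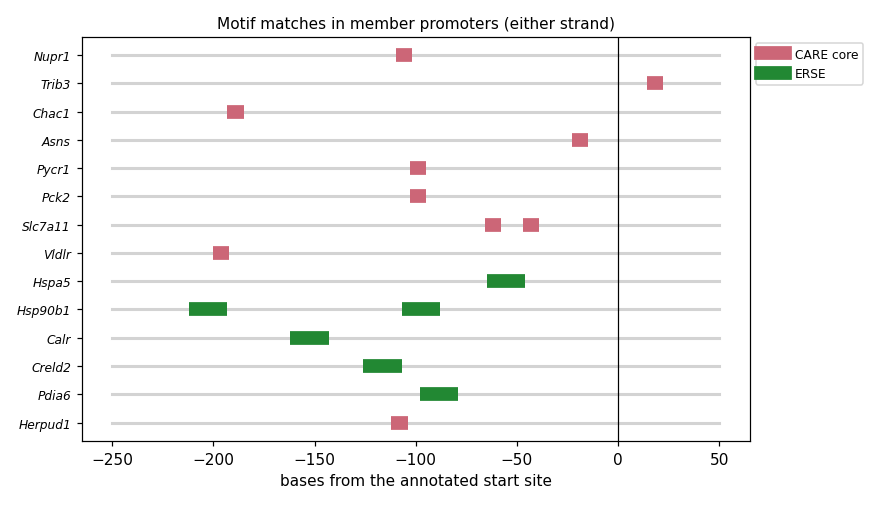
Position of the CARE core (red) and the ERSE (green) along the promoter entries (grey, 250 bases before to 50 after the start at 0) of the 14 members with a match. The green matches lie in 5 genes of the ER arm, and Herpud1 is the gene of that arm with a red match.

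Levels spanned a wide range. UMIs of these 3′ libraries count transcripts and do not scale with gene length. The ER arm was carried by Calr, Hsp90b1 and Hspa5, a calcium-binding chaperone, the ER form of HSP90 and the chaperone BiP, which stood at 473 to 651, 569 to 648 and 486 to 621 CPM over the 4 classes. In the ATF4 arm the highest were Eif4ebp1, a repressor of cap-dependent translation, at 505 to 598 CPM and Slc38a2, a sodium-coupled neutral amino acid transporter, at 364 to 472 CPM. Atf4 itself was at 232 CPM in WT and 217 in KO ESCs, and at 204 and 157 CPM in WT and KO 48h-EpiLCs. The classic stress-induced genes were low. Ddit3, which encodes the pro-apoptotic factor CHOP, was at 5.79 to 15.6 CPM, and Trib3, a pseudokinase that restrains ATF4, at 12.0 to 18.7 CPM. Slc7a11, a subunit of the cystine transporter, did not pass 5.79 CPM in any class and Vldlr, a lipoprotein receptor, did not pass 4.82 CPM. Summed over its genes, the ATF4 arm took 2525 CPM in WT and 2239 in KO ESCs, and 2737 and 2446 CPM in WT and KO 48h-EpiLCs. The ER arm took 2408 and 2845 CPM in ESCs, and in 48h-EpiLCs 2378 and 2400 CPM. The sum of the ATF4 arm was thus lower in KO than in WT cells in both libraries. That of the ER arm was higher in KO ESCs than in the other 3 classes, which lay between 2378 and 2408 CPM. Abundant genes weigh most in these sums, and gene by gene the ATF4 arm was split in ESCs, as given below.

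**Figure D2:**
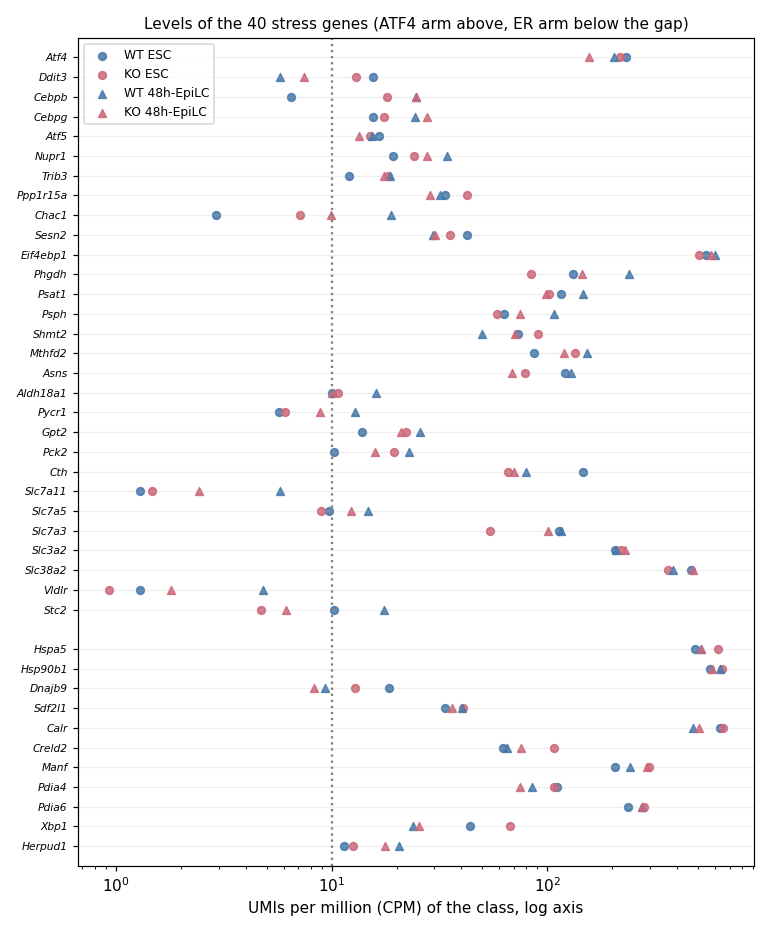
Level of each member in WT (blue) and KO (red) ESCs (circles) and 48h-EpiLCs (triangles), as CPM of the summed class on a log axis. The dotted line marks 10 CPM, and the most abundant members are Calr, Hsp90b1, Hspa5, Eif4ebp1 and Slc38a2.

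In ESCs, 9 of the 11 genes of the ER arm lay higher in KO cells, and the ATF4 arm was split between genes that were higher and genes that were lower. A gene was counted as measured where the mean of both classes was at least 10 CPM, and as past the threshold where its CPM + 1 differed 1.5-fold. Over all 7584 genes measured, 10.7% were past it upward and 4.5% downward, the median log2 ratio was 0.12 and 62.8% of the genes lay above 0. Of 23 measured genes of the ATF4 arm, 4 were past it upward and 4 downward, with a median log2 ratio of -0.10. Of the 11 genes of the ER arm, 2 were past it upward and 0 downward, with a median of 0.25. The interval of that median over its genes (-0.05 to 0.60) holds the median of all genes, and 2 of 11 is not far from the 10.7% of all genes. That interval is taken from the ordered ratios of the genes, which are not replicates, so it measures no spread between samples. With 1 library per stage no test was possible. The intervals given for single genes and for summed levels are exact 95% intervals for counting error only.

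The higher genes of the ATF4 arm were 1 transcription factor and 3 mitochondrial or metabolic enzymes. Cebpb, which encodes a bZIP partner of ATF4, was at 6.50 CPM in WT and 18.0 CPM in KO ESCs (log2 ratio 1.47, 1.01 to 1.96). It was under 10 CPM in WT ESCs and passed the filter through its level in KO ESCs. Its ratio therefore says nothing about the arm as a whole, whose counts and median above include it. Pck2, the mitochondrial phosphoenolpyruvate carboxykinase, was at 10.2 and 19.4 CPM (0.92, 0.55 to 1.31). Gpt2, a mitochondrial alanine aminotransferase, was at 13.8 and 22.2 CPM (0.68, 0.36 to 1.02). Mthfd2, the mitochondrial one-carbon enzyme, was the most abundant of these, at 86.8 and 135 CPM (0.64, 0.51 to 0.77). Part of the Cebpb transcripts in KO ESCs came from cells with feeder markers. The 75 KO ESCs with at least 3 UMIs of feeder markers and fewer of primitive endoderm markers held Cebpb at 136 CPM, against 13.4 CPM in the 2789 KO ESCs without marks of feeder or primitive endoderm cells. With marked cells left out of both lines the log2 ratio of Cebpb was 1.46.

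The lower genes made or moved amino acids. Cth, the cystathionine gamma-lyase of cysteine synthesis, was at 146 CPM in WT and 65.5 CPM in KO ESCs (-1.16, -1.27 to -1.05). Slc7a3, a cationic amino acid transporter encoded on the X chromosome, was at 113 and 54.4 CPM (-1.06, -1.18 to -0.93). Phgdh, the first enzyme of serine synthesis, was at 132 and 83.7 CPM (-0.65, -0.76 to -0.54). Asns, the asparagine synthetase, was at 121 and 79.2 CPM (-0.61, -0.72 to -0.49). The enzymes of serine and one-carbon metabolism therefore did not move as a group, since Phgdh was lower and Mthfd2 higher, while Psat1, Psph and Shmt2 lay between -0.17 and 0.31. The other 15 measured genes of the ATF4 arm lay between log2 ratios of -0.35 and 0.60. The 6 genes below 10 CPM were Chac1, Pycr1, Slc7a11, Slc7a5, Vldlr and Stc2.

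In the ER arm, Creld2, a secreted ER stress-inducible factor, was at 62.6 CPM in WT and 107 CPM in KO ESCs (0.78, 0.63 to 0.93), and Xbp1 at 43.7 and 67.0 CPM (0.62, 0.43 to 0.80). Of the 9 other genes, Manf, a neurotrophic factor of the ER that is released under stress and whose gene overlaps Rbm15b on the same strand, was at 206 and 297 CPM (0.52, 0.44 to 0.61) and Hspa5 at 486 and 621 CPM (0.35, 0.30 to 0.41). Dnajb9, a co-chaperone of BiP, lay on the other side, at 18.5 and 12.8 CPM (-0.53, -0.82 to -0.23). The ER arm took 2838 CPM in the KO ESCs without marks of feeder or primitive endoderm cells, 2652 CPM in feeder-marked cells and 3172 CPM in the 108 cells marked for primitive endoderm, and its median log2 ratio with marked cells left out was 0.27. All 10 genes past the threshold kept their sign under the 9 alternative ways of choosing or scaling cells. Pck2, Cth and Slc7a3 stayed past it in each of these. Where only cells of at least 20000 UMIs were used and WT cells were set by the absence of Y-linked UMIs alone, these 3 were the genes left past it, the median of the ER arm was 0.05 against 0.08 over all genes, and Cebpb was at 0.40, Gpt2 at 0.55, Mthfd2 at 0.38, Creld2 at 0.39, Xbp1 at 0.35, Phgdh at -0.41 and Asns at -0.37. With TMM scaling, which lowered the median of all genes from 0.12 to 0.02, Gpt2 was at 0.58, Mthfd2 at 0.54 and Xbp1 at 0.52, under the threshold, and with stricter line marks Phgdh was at -0.26, Creld2 at 0.42 and Xbp1 at 0.56. Thinned to equal depth, Asns was at -0.56.

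**Figure D3:**
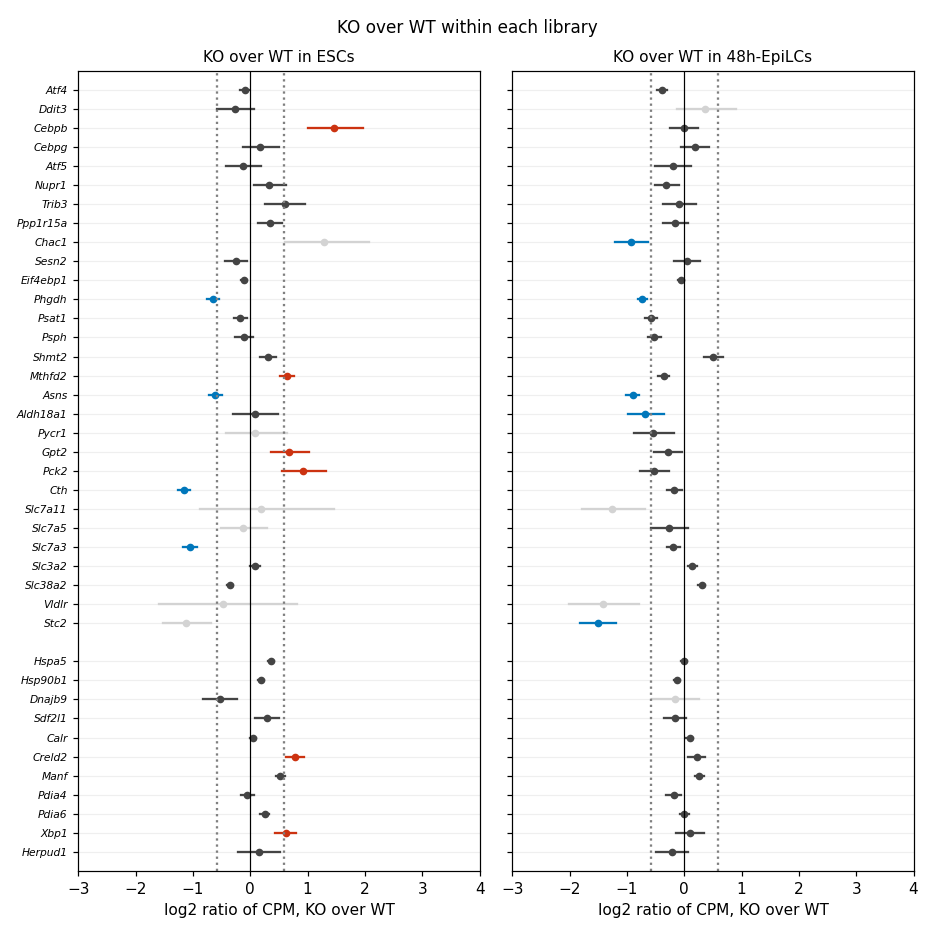
Log2 ratio of CPM of KO over WT in ESCs (left) and 48h-EpiLCs (right) for each member, the ATF4 arm above and the ER arm below the gap. Bars are exact 95% intervals for counting error, dotted lines mark 1.5-fold, red and blue are genes past it upward and downward on the CPM + 1 scale, and light grey are genes under 10 CPM. Red appears in the left panel only, for 6 genes, and blue in both, for 4 and 5 genes.

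In 48h-EpiLCs, most measured genes of the ATF4 arm lay lower in KO cells and the ER arm showed no common direction. Over all 7590 genes measured, 6.69% were past 1.5-fold upward and 3.74% downward, with a median log2 ratio of 0.07 and 60.0% of the genes above 0. Of 26 measured genes of the ATF4 arm, 0 were past it upward and 5 downward, the median was -0.26, and 5 of the 26 lay above 0. The 10 measured genes of the ER arm held none past the threshold, lay between -0.22 and 0.26, and had a median of 0.00. Ddit3, Slc7a11, Vldlr and Dnajb9 were under 10 CPM on average. Of the 5 downward genes, Stc2 and Chac1 were under 10 CPM in KO cells and passed the filter through their level in WT cells. Pycr1, not past the threshold, passed it in the same way. These genes could pass only as lower in KO cells and therefore say nothing about the arm as a whole. The counts and the median of the ATF4 arm include them and were not taken without them.

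The 5 lower genes were enzymes of amino acid synthesis, a glutathione-degrading enzyme and a secreted factor. Stc2, the secreted glycoprotein stanniocalcin-2, was at 17.5 CPM in WT and 6.16 CPM in KO 48h-EpiLCs (-1.51, -1.82 to -1.19). Chac1, which cleaves glutathione, was at 18.8 and 9.90 CPM (-0.93, -1.21 to -0.63). Asns was at 128 and 68.7 CPM (-0.90, -1.01 to -0.79). Phgdh was at 240 and 144 CPM (-0.73, -0.81 to -0.65). Aldh18a1, which starts proline synthesis from glutamate, was at 16.1 and 10.1 CPM (-0.68, -0.99 to -0.36). Asns and Phgdh were the genes past 1.5-fold downward in both libraries. Stc2 was under 10 CPM on average in ESCs, where it was at 10.2 CPM in WT and 4.72 CPM in KO cells.

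The remaining steps of serine synthesis were also on the lower side in KO 48h-EpiLCs without passing the threshold. Psat1, the phosphoserine aminotransferase, was at 147 and 98.3 CPM (-0.58, -0.68 to -0.48), and Psph, the phosphoserine phosphatase, at 108 and 74.9 CPM (-0.52, -0.64 to -0.40). Shmt2, the mitochondrial enzyme that takes the serine carbon into the folate cycle, was on the other side, at 49.7 and 70.6 CPM (0.51, 0.34 to 0.68). The 6 measured enzymes of other amino acid metabolism all lay below 0, from -0.90 to -0.17, but Pycr1 passed the filter only through its level in WT cells. Pycr1 was at 0.36 and Gpt2 at 0.18 with stricter line marks, so that this common side did not hold under that rule. The 4 measured transporters lay between -0.26 and 0.30. Atf4 itself was at -0.38 (-0.47 to -0.30) in 48h-EpiLCs and at -0.10 (-0.18 to -0.02) in ESCs. All 5 genes past the threshold kept their sign under the 9 alternatives, and Asns and Stc2 stayed past it in each. In deep cells with WT set by the absence of Y-linked UMIs alone, Chac1 was at -0.41, Phgdh at -0.54 and Aldh18a1 at -0.49, with stricter line marks Chac1 was at -0.53, and in thinned cells Aldh18a1 was at -0.57.

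Several enzymes lay on opposite sides in the 2 libraries. Of the 22 genes of the ATF4 arm measured in both, 9 lay below 0 in both, 3 above 0 in both, 8 above 0 in ESCs and below 0 in 48h-EpiLCs, and 2 the reverse. Pck2 was at 0.92 in ESCs and -0.52 in 48h-EpiLCs. Mthfd2 was at 0.64 and -0.36, and Gpt2 at 0.68 and -0.28. With stricter line marks the ratio of Gpt2 in 48h-EpiLCs was 0.18. Cth and Slc7a3 were low in KO ESCs but near the WT level in 48h-EpiLCs, with log2 ratios of -0.17 (-0.31 to -0.03) and -0.19 (-0.31 to -0.08). Of the 10 genes of the ER arm measured in both, 6 lay above 0 in both. Over all genes measured, 62.8% lay above 0 in ESCs and 60.0% in 48h-EpiLCs. Their split over both libraries was not counted, so these counts cannot be called particular to either arm.

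The change from ESCs to 48h-EpiLCs differed in extent between the lines. In WT cells, 11.2% of the 7483 genes measured were past 1.5-fold upward and 10.6% downward, with a median log2 ratio of 0.02. Of 26 measured genes of the ATF4 arm, 12 were past it upward and 2 downward, with a median of 0.45. These values include Chac1, Cebpb and Slc7a5, which were under 10 CPM in WT ESCs and passed the filter through WT 48h-EpiLCs. They also include Ddit3, which passed it through WT ESCs alone. Slc7a5 was at 9.75 and 14.8 CPM. The counts and the median were not taken without these genes, so they cannot stand for the arm as a whole. In KO cells, 7.14% of 7717 genes were past it upward and 9.39% downward, with a median of -0.03. Of 24 measured genes of the ATF4 arm in KO cells, 3 were past it upward and 1 downward, with a median of -0.06. Slc7a5 and Ddit3 passed the filter in KO cells in the same way as in WT cells. Of the 24 genes measured in both comparisons, 15 had the higher ratio in WT cells. The same count was not made over all genes. The WT and KO ratios share no class, but each line's ratios share its ESC and 48h-EpiLC classes with the comparisons above and are another view of the same 4 levels.

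The genes that reached the threshold in WT cells were named after their values had been seen. Chac1 and Cebpb were under 10 CPM in WT ESCs and passed the filter through their level in WT 48h-EpiLCs, and Chac1 did not pass it in KO cells, so that their ratios say nothing about the arm as a whole. Chac1 was at 2.92 CPM in WT ESCs and 18.8 CPM in WT 48h-EpiLCs (2.69, 1.96 to 3.49), while KO cells had 7.14 and 9.90 CPM. Cebpb was at 6.50 and 24.6 CPM in WT cells (1.92, 1.41 to 2.46) and at 18.0 and 24.5 CPM in KO cells (0.45, 0.32 to 0.57). With cells marked for feeder or primitive endoderm left out, its ratio was 2.34 in WT cells and 0.87 in KO cells, the latter past 1.5-fold. Pck2 was at 10.2 and 22.8 CPM in WT cells (1.16, 0.72 to 1.61), and at 19.4 and 15.9 CPM in KO cells (-0.29, -0.42 to -0.15). The levels of these 3 genes in KO ESCs thus already lay above those in WT ESCs. Mthfd2 was at 86.8 and 153 CPM in WT cells (0.82, 0.67 to 0.98), and at 135 and 120 CPM in KO cells (-0.18, -0.23 to -0.13). The other 8 were Cebpg, Nupr1, Trib3, Phgdh, Psph, Aldh18a1, Gpt2 and Stc2, at 0.63 to 0.89. Trib3, at 0.63, was at 0.01 where line marks were stricter, with 33 and 24 WT cells. In deep cells with WT set by the absence of Y-linked UMIs alone, Nupr1 was at 0.27 and Mthfd2 at 0.49, and with stricter line marks Gpt2 was at 0.42. Pycr1, Slc7a11 and Vldlr were under 10 CPM on average in both lines, and Chac1 and Stc2 in KO cells. Of these 12, Phgdh and Cebpg were also past the threshold in KO cells. Phgdh was at 0.87 (0.74 to 0.99) in WT and 0.78 (0.73 to 0.84) in KO cells, and Cebpg, a bZIP factor that pairs with ATF4, at 0.65 (0.27 to 1.03) and 0.66 (0.53 to 0.78).

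Ddit3 was past the threshold downward in both lines, from 15.6 to 5.79 CPM in WT cells (-1.43, -2.03 to -0.86) and from 12.9 to 7.44 CPM in KO cells (-0.80, -0.98 to -0.62). It was under 10 CPM in 48h-EpiLCs of both lines and passed the filter through its level in ESCs. In KO ESCs it stood at 46.4 CPM in the feeder-marked cells and 11.1 CPM in cells without marks, and the KO ratio was -0.58 with marked cells left out, which is under the threshold. Cth was at 146 and 79.3 CPM in WT cells (-0.88, -1.04 to -0.72) and at 65.5 and 70.3 CPM in KO cells (0.10, 0.03 to 0.17). Slc7a3 moved in KO cells, from 54.4 to 101 CPM (0.89, 0.83 to 0.96), and stood at 113 and 116 CPM in WT cells (0.03, -0.12 to 0.18).

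In the ER arm, 1 gene was past the threshold upward and 2 downward in WT cells, with a median of 0.08, and 0 upward and 1 downward in KO cells, with a median of -0.27. Xbp1 was lower past it in both lines, from 43.7 to 23.8 CPM in WT cells (-0.88, -1.18 to -0.58) and from 67.0 to 25.4 CPM in KO cells (-1.40, -1.49 to -1.31). Dnajb9 was at 18.5 and 9.33 CPM in WT cells (-0.99, -1.47 to -0.52) and at -0.62 (-0.80 to -0.45) in KO cells, which misses the threshold on the CPM + 1 scale. It was under 10 CPM in 48h-EpiLCs of both lines and passed the filter through its level in ESCs. Herpud1, a component of ER-associated degradation, went the other way, from 11.4 to 20.6 CPM in WT cells (0.86, 0.42 to 1.30) and from 12.6 to 17.7 CPM in KO cells (0.49, 0.34 to 0.64). With stricter line marks its WT ratio was 0.55. Herpud1 was the 1 gene of the 11 above 0 in KO cells.

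**Figure D4:**
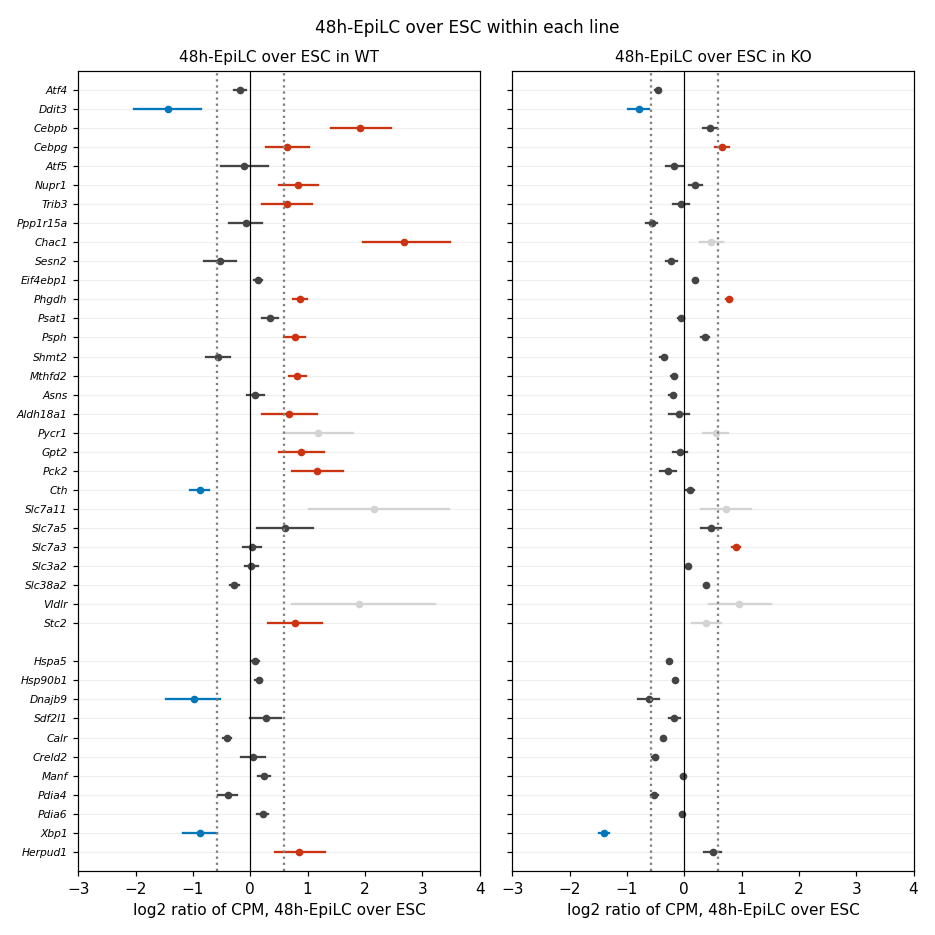
Log2 ratio of CPM of 48h-EpiLCs over ESCs in WT (left) and KO (right) cells for each member, with exact 95% counting intervals, dotted lines at 1.5-fold and colours as in the plot of KO over WT. Of the ATF4 arm, 12 genes are red on the left and 3 on the right.

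Other genes of the pathways were counted by lists, and few were past the threshold. These counts stand against 10.7% upward and 4.5% downward over all genes in ESCs, and 6.69% and 3.74% in 48h-EpiLCs. The kinases and their partners (9 genes, 7 measured in each library) held 0 genes past 1.5-fold in either direction in ESCs and 1 upward in 48h-EpiLCs, with medians of 0.18 and 0.10. The 9 genes of eIF2 and its exchange factor held none in either library, with medians of 0.27 and 0.24. The 17 aminoacyl-tRNA synthetases, known ATF4 targets in part, held none in ESCs (median 0.01) and 1 downward in 48h-EpiLCs (median -0.13), where 3 of the 17 lay above 0. Of 28 other ER quality control genes, 26 were measured in ESCs, with 1 upward and a median of 0.25, and 25 in 48h-EpiLCs, with 1 upward, 1 downward and a median of 0.11. Of 21 other ATF4- or stress-linked genes, 11 and 12 were measured, with 1 upward and 2 downward in each library. The 2 downward genes were the same in both. Ddit4, an inhibitor of mTORC1, was at 44.5 CPM in WT and 24.8 CPM in KO ESCs, and in 48h-EpiLCs at 109 and 42.4 CPM. Gadd45a, a growth arrest gene, was at 38.0 and 17.8 CPM, and at 40.5 and 24.7 CPM. Among 9 cytosolic heat shock genes, of which 7 were measured, 1 was past it upward in ESCs and 2 in 48h-EpiLCs, and the 1 shared was Dnajb1, an HSP40 co-chaperone, at 48.3 and 75.5 CPM and at 52.1 and 112 CPM. The 7 mitochondrial unfolded protein response genes held none in either library.

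From cell to cell, the other genes of the ATF4 arm were higher in the small share of cells with many transcripts of 6 index genes, in KO cells of both libraries and in WT 48h-EpiLCs. Each cell was thinned to 5000 UMIs, and cells were binned by the summed UMIs of Ddit3, Trib3, Chac1, Asns, Sesn2 and Nupr1, leaving 34 members that the bins did not use. Cells with 4 or more of these UMIs were 2.30% of WT (10 cells) and 3.55% of KO ESCs (105 cells), and 5.45% of WT (20 cells) and 2.66% of KO 48h-EpiLCs (79 cells). The other 23 genes of the ATF4 arm summed to 1924 CPM (1891 to 1957) in KO ESCs with 0 index UMIs and 3030 CPM (2883 to 3183) in those with 4 or more. In KO 48h-EpiLCs these sums were 2172 CPM (2139 to 2205) and 3484 CPM (3302 to 3673), and in WT 48h-EpiLCs 2353 CPM (2233 to 2477) and 3460 CPM (3105 to 3844). In WT ESCs, with 10 cells in the upper bin, they were 2214 CPM (2110 to 2323) and 2660 CPM (2227 to 3152), and these intervals overlap. The ER arm differed less, at 2853 and 3190 CPM in KO ESCs and at 2403 and 2954 CPM in KO 48h-EpiLCs. Depth before thinning differed little between these bins, with medians of 13139 and 13826 UMIs in KO ESCs and 17342 and 18997 UMIs in KO 48h-EpiLCs.

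The genes named for their differences between these bins were chosen after their values had been seen. Pck2 was at 13.2 CPM in KO ESCs with 0 index UMIs and 68.6 CPM in those with 4 or more, and at 10.9 and 78.5 CPM in KO 48h-EpiLCs. In WT 48h-EpiLCs it was at 13.0 and 80.0 CPM. Mthfd2 was at 126 and 244 CPM in KO ESCs and at 103 and 286 CPM in KO 48h-EpiLCs. Atf4 was at 195 and 389 CPM in KO ESCs and at 142 and 337 CPM in KO 48h-EpiLCs. In WT cells the interval of the log2 ratio of Atf4 included 0 in both libraries. It stood at 224 and 200 CPM in WT ESCs (-1.25 to 0.75), and in WT 48h-EpiLCs at 166 and 240 CPM (-0.17 to 1.19). Cebpb was at 13.3 and 78.1 CPM in KO ESCs, and at 21.3 and 45.6 CPM in KO 48h-EpiLCs, while WT 48h-EpiLCs had 24.4 and 20.0 CPM, the latter from 2 UMIs. The bins kept cells with feeder markers. Feeder-marked KO ESCs held Cebpb at 136 CPM and the index genes Ddit3 and Nupr1 at 46.4 and 50.5 CPM. KO ESCs without marks held these 3 genes at 13.4, 11.1 and 23.3 CPM. The share of feeder-marked cells in the upper bin was not counted. The upper bins of WT cells hold 10 and 20 cells, so that single genes there rest on few UMIs. In the ER arm Herpud1 was the farthest, at 8.45 and 28.6 CPM in KO ESCs and at 13.2 and 60.8 CPM in KO 48h-EpiLCs. Slc7a3 was at 51.8 and 45.7 CPM in KO ESCs and at 95.7 and 101 CPM in KO 48h-EpiLCs, and Calr at 673 and 678 CPM and at 535 and 567 CPM. Slc7a3, which was lower in KO than in WT ESCs, was thus not higher in the upper bin. Over single cells the summed UMIs of the ATF4 arm and of the ER arm had Pearson correlations of -0.01 in 434 WT and 0.03 in 2955 KO ESCs, and of 0.03 in 367 WT and 0.12 in 2968 KO 48h-EpiLCs. These are descriptions of cells that share a library and a fixed depth.

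**Figure D5:**
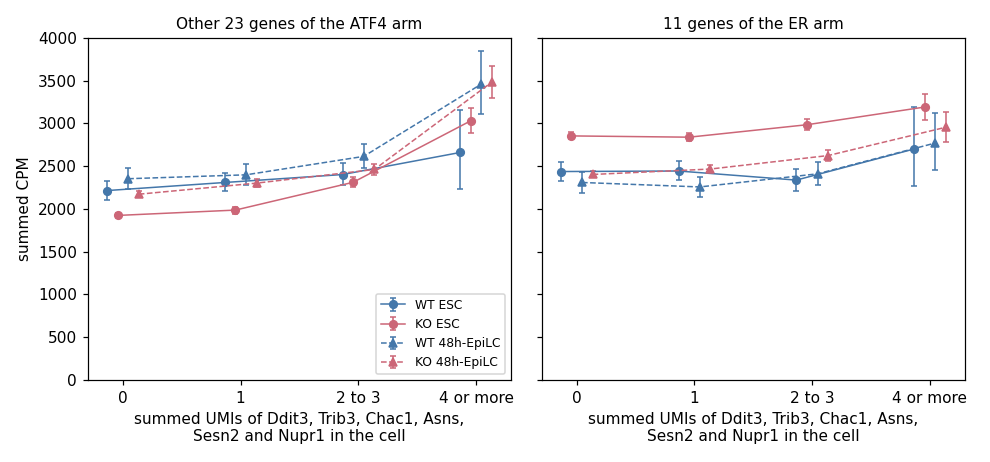
Summed CPM of the other 23 genes of the ATF4 arm (left) and of the 11 genes of the ER arm (right) in cells thinned to 5000 UMIs, by the summed UMIs of 6 index genes of the ATF4 arm, for WT (blue) and KO (red) ESCs (circles) and 48h-EpiLCs (triangles). Bars are exact 95% Poisson intervals, and the left panel is higher at 4 or more UMIs than at 0 in each class, with overlapping bars in WT ESCs.

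Among the members with a wide spread between cells were abundant ER chaperones and Slc38a2. Genes of like level were not compared, so the part of level in these values was not tested. The Fano factor, the variance over the mean of thinned UMIs, had a median over all genes of 1.02 to 1.03 in the 4 classes and a 95th percentile of 1.20 to 1.28. It was 1.59 to 1.76 for Hspa5, 1.44 to 1.59 for Hsp90b1, 1.42 to 1.64 for Slc38a2 and 1.27 to 1.44 for Nupr1, a small chromatin-binding stress protein. Chac1 reached 1.5 in WT 48h-EpiLCs. Cebpb reached 1.53 in KO ESCs and stood at 1.05 and 1.09 in WT and KO 48h-EpiLCs, and its level in KO ESCs was carried in part by the feeder-marked cells given above.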

How the data were processed

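The authors made the deposited UMI counts per gene and cell barcode with Cell Ranger (version 3.0.2), per the methods of the study, on mm10 with the tdTomato sequence added. Default parameters were used, under which antisense reads are not counted. No normalisation is stated, and the barcodes are those called as cells. The notes also name Seurat (version 4).

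Barcodes under 1000 genes or over 10% mitochondrial UMIs were left out, and lines were set as described in the report. UMIs were summed per library and line and scaled to the class total (CPM). The ratio of each gene has an exact 95% binomial interval given both counts, and CPM values exact Poisson intervals, which cover counting error only. Counts past 1.5-fold and medians used log2 of CPM + 1 over genes with a mean of at least 10 CPM. With cells of 1 library per stage as the only units, nothing was tested. Doublets were not removed in the main analysis, other than cells with both line marks, and an alternative left out the top 10% of simulated-doublet scores in each library. The members, lists and rules were chosen with earlier results of these data known. Full values are given for members past 1.5-fold in at least 1 comparison of KO over WT, and others by range and count unless said. Of the pathway lists, at most 3 genes each were named, if past it in the same direction in both libraries. The 11 alternatives changed the cell filter, the line rule, depth, thinning, doublets, cells with markers of other types, scaling (with edgeR 4.0.16 for TMM), the pseudocount and the low-value filter. The rule using cells of at least 20000 UMIs with WT set by Y-linked genes alone was added after seeing the data. Promoters were RefSeq entries on GRCm38.p6, matched by symbol, and gene overlaps were read from GENCODE annotation on GRCm38. Intervals were checked on simulated Poisson counts, the model they assume, so that the check says nothing about spread beyond counting error. Python 3.11.15 with scipy 1.17.1, numpy 2.4.6 and pandas 2.3.3 was used.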

Additional observations from a re-analysis of the deposited data

Results flagged for a closer look

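Genes whose ratios lay past 1.5-fold in 1 comparison and on the opposite side, with intervals on both sides of 0, in the matching comparison are listed here where the mean of both classes was at least 10 CPM in both comparisons. Chac1, at -0.93 for KO over WT in 48h-EpiLCs and 1.29 in ESCs, was under that mean in ESCs, at 2.92 and 7.14 CPM. With 1 library per stage these differences were not tested. Mthfd2 had a KO over WT log2 ratio of 0.64 in ESCs and -0.36 in 48h-EpiLCs, and its ratio of 48h-EpiLCs over ESCs was 0.82 in WT and -0.18 in KO cells. Pck2 was at 0.92 and -0.52 for KO over WT, and at 1.16 and -0.29 for the stages in WT and KO cells. Gpt2 was at 0.68 in ESCs and -0.28 in 48h-EpiLCs for KO over WT. The ratio in 48h-EpiLCs kept its sign in 7 of 9 alternatives and was 0.18 with stricter line marks. Cth had a ratio of 48h-EpiLCs over ESCs of -0.88 in WT and 0.10 in KO cells. In cells of at least 20000 UMIs with WT set by the absence of Y-linked UMIs alone, its KO ratio was -0.05.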

How the results depend on the processing

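No paired analysis was possible because each stage had 1 library. The medians of both arms stayed within their order-statistic intervals under all alternatives, but these intervals are wide. The median of the ATF4 arm for KO over WT ranged from -0.20 to 0.10 in ESCs and from -0.49 to -0.14 in 48h-EpiLCs, and that of the ER arm from 0.05 to 0.30 in ESCs. For the change from ESCs to 48h-EpiLCs the ATF4 arm ranged from 0.06 to 0.60 in WT and from -0.09 to 0.10 in KO cells. The number of members past 1.5-fold for KO over WT in 48h-EpiLCs was 5. It was 12 with stricter line marks, which left 33 and 24 WT cells, 2 in cells of at least 20000 UMIs with WT set by the absence of Y-linked UMIs alone, and 2 among members of at least 50 CPM. In ESCs the number was 10, and 3 under that added rule. For the stages in KO cells the number was 5, with 8 under stricter line marks and 2 at 50 CPM, and in WT cells 17, with 4 at 50 CPM, where fewer genes are tested. The cause of the changes with the line rules was not tested. No sign of a member past 1.5-fold reversed in the comparison where it was past it. The WT classes hold 6154790 and 6219834 UMIs, so that genes near 10 CPM rest on few counts, and no replicate spread is known.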

Other observations

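Barcodes that the filter on mitochondrial UMIs left out had more transcripts of the ER arm. Per 1000000 non-mitochondrial UMIs, the 408 barcodes of the ESC library with over 10% mitochondrial UMIs held the ER arm at 4654, against 2770 in the 11054 cells kept, and Hspa5 at 1394 against 585. The 726 such barcodes of the 48h-EpiLC library held the ER arm at 3511 against 2470, and Hspa5 at 1075 against 533. The ATF4 arm was at 3067 against 2436 in the ESC library and at 3594 against 2642 in the 48h-EpiLC library. These barcodes had medians of 2545.5 and 2481 UMIs, against 11883 and 15284 in the cells kept, and the part of depth in these values was not tested.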
